A study of Mus musculus with 2 samples.

Results

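The regions described here were 4995 EP300 peaks whose summits lay at one-directional protein-coding promoters of the newborn mouse heart. They were taken from the authors' optimal list, the longer of their lists made with the irreproducible discovery rate (IDR), a measure of how well peak ranks reproduce. The list holds more than peaks found in both libraries: 281 members had no summit within 100 bp in the full list of either. A peak was a member when its summit lay within 1 kb of a transcription start site (TSS) of a protein-coding transcript on chromosomes 1 to 19. Summits within 1 kb of TSSs of protein-coding genes on opposite strands were left out as bidirectional. The members were 29.1% (28.4 to 29.8%) of the 17169 peaks on these chromosomes, of 17372 in the whole list. A further 744 peaks were bidirectional and 11430 were distal, that is, more than 1 kb from every protein-coding TSS. Member summits within the usual width of 1 call of each other were joined into 3818 sites, against 573 bidirectional and 9577 distal sites. Intervals in parentheses are exact 95% binomial intervals and cover counting error only.

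EP300 was immunoprecipitated from heart tissue of B6NCrl mice at postnatal day 0, in 2 libraries numbered as replicates of 1 group, each called against control libraries. No genotype, treatment or second tissue was compared, and the sex was not collected. Both libraries carried the same biosample and donor identifiers, so agreement between them may measure technical spread only. Whole heart mixes muscle, endothelium, fibroblasts and blood cells, and a weak peak from many cells cannot be told apart from a strong peak in few. The tissue label was checked against marker genes. Of the heart muscle ones, Tnnt2, Myh6, Tnni3 and Actc1 had a promoter peak and Nkx2-5 and Myl7 had none. Of the endothelial ones, Cdh5 and Tie1 had one and Pecam1 and Tek had none. Of the fibroblast ones, Col1a1 had one and Pdgfra, Dcn and Tcf21 had none. No peak of the list lay within 100 kb of the blood genes Hbb-bt, Ptprc and Csf1r, the liver genes Alb and Apoa1 or the neuronal gene Snap25, while the neuronal gene Rbfox3 had 2 peaks, neither at its promoter. Nkx2-5 had 6 peaks within 100 kb but none at its promoter, and Myl7 had 0.

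EP300 (p300) is a histone acetyltransferase that has no DNA sequence preference of its own and is brought to chromatin by transcription factors. It is best known for marking active enhancers, including those of heart muscle, but it also binds near the TSSs of active genes, where it acetylates histones and basal transcription proteins. Mammalian promoters fall broadly into CpG-rich ones, common at genes that most cells use, and CpG-poor ones, more often found at tissue genes.

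One sequence recurred at some of the strongest promoter summits, while most of them lacked it. An 8-base element, TCTCGCGA on either strand, lay in the 200 bp centred on the summit at 35 of the 100 sites of highest signal. Elements with this CGCG core are known as binding sites of the nuclear protein BANP at CpG-rich promoters; BANP itself was not measured here. The element was noticed in these summits after their values were seen and was then counted everywhere, so its shares are given without a test. The matches at 8 of the strongest sites that carry it are printed to show how alike they are, in the direction of the gene, with the element in capitals (coordinates in GRCm38/mm10; sequence from RefSeq GRCm38.p6; windows that touch an exon are cut short):
Cdk12, chr11:98202705-98202754, plus strand: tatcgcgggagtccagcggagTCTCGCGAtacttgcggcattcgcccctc
Denr, chr5:123907185-123907214, plus strand: gcacggtggcgTCTCGCGAcatcctcctag
Rbm39, chr2:156180258-156180307, minus strand: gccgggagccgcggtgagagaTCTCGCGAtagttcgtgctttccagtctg
Qrich1, chr9:108517050-108517079, plus strand: gacgctccggtTCTCGCGAGAagggccttc
Mapk14, chr17:28691278-28691327, plus strand: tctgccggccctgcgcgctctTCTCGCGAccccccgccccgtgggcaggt
Ddx20, chr3:105687435-105687464, minus strand: aagtctaaataTCGCGAGAtctggaggcgc
Rraga, chr4:86575643-86575672, plus strand: gccctcggagtTCTCGCGAGAtgccggcgg
Ercc6l2, chr13:63815238-63815267, plus strand: ctagtccatctTCTCGCGAtatctggaggg

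**Figure D1:**
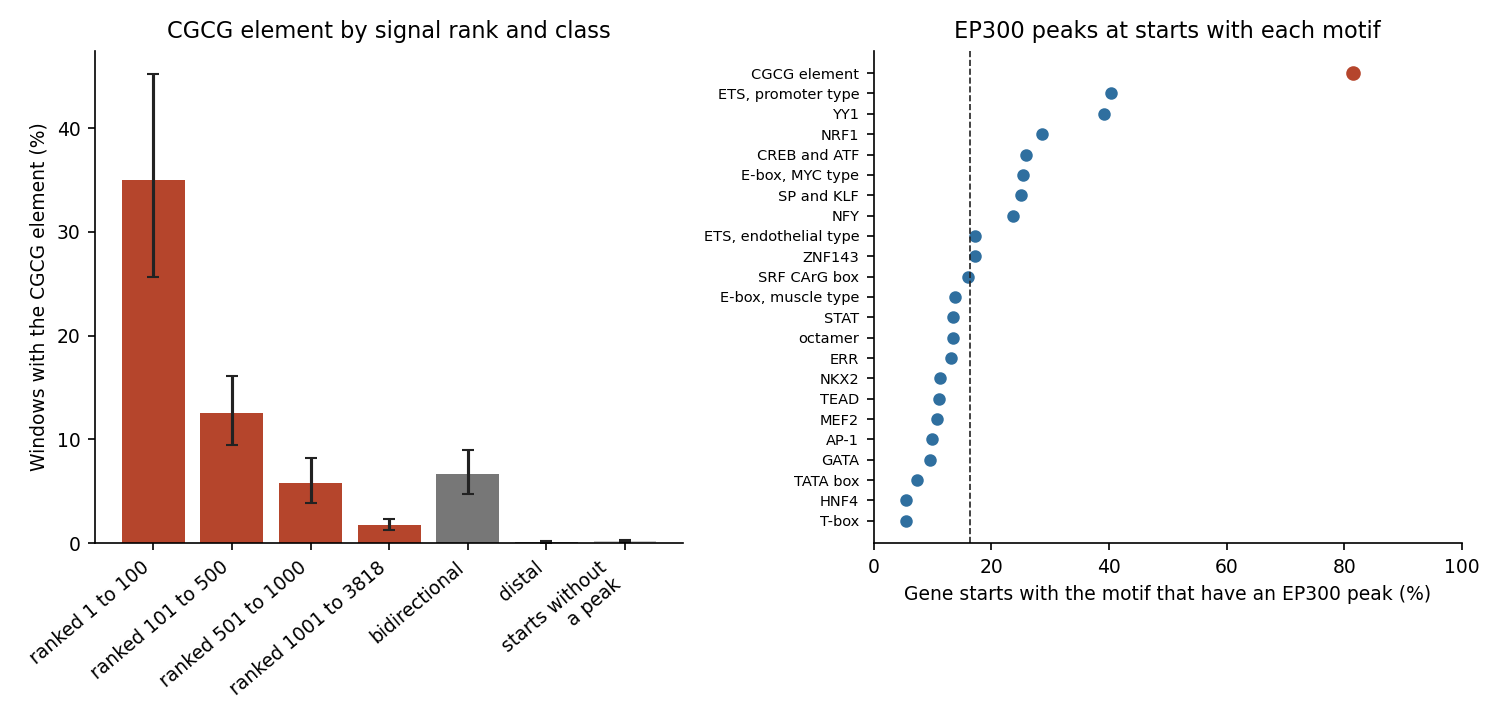
The left plot gives the percent of 200-bp windows that hold the CGCG element for one-directional sites by signal rank (red), for bidirectional and distal sites (grey) and for gene starts without a peak (light grey), with exact 95% intervals; the share falls from 35.0% in the first 100 sites to 1.74% beyond rank 1000. The right plot gives, for each motif, the percent of one-directional gene starts with that motif that have an EP300 peak; the dashed line is the 16.3% of all such starts, and the CGCG element (red) stands at 81.5%.

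The share of sites with the element fell with signal, from 35.0% (25.7 to 45.2%) in the first 100 to 12.5% (9.42 to 16.1%) in the next 400, 5.80% in the 500 after those and 1.74% (1.29 to 2.29%) after that. Over all members it was 4.27%, against 6.63% of bidirectional and 0.0940% of distal sites. Of the 100 strongest one-directional sites of replicate 1, 33 held it, and 30 of those of replicate 2; both libraries are part of the list in which the element was noticed, so these counts are no separate support. Sites with the element had a median signal of 66.5, against 33.9 for the other member sites. Summits in the leading peaks of both libraries were found at 77.3% (70.1 to 83.5%) of sites with the element, against 44.1% of all member sites. Such support goes with signal, so this share is not separate from the higher median. The match lay close to the summit, at a median of 26.5 bp, and 47.8% of the 182 matches were within 25 bp of it. Relative to the TSS the median position was -38 bp, and 72.0% of matches were within 100 bp of it. For the other motifs searched, the median distance of a match from the summit ranged from 32.5 bp for GATA to 64 bp for ZNF143. The highest share within 25 bp among them was 37.8% (23.8 to 53.5%), for STAT, and its interval overlapped that of the element (40.4 to 55.3%). The element was noticed at strong summits, so its nearness to the summit is not separate support.

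Seen from the genes, 162 of 18395 one-directional gene starts had the element within 100 bp (0.881%), and 132 of them had a member peak within 1 kb (81.5%, 74.6 to 87.1%). Over all one-directional starts that share was 16.3%. These starts were mostly CpG-rich, 150 of the 162. Among CpG-rich starts alone the share was 83.3% (76.4 to 88.9%) with the element, against 30% of all of them. The next motifs in this order were the promoter-type ETS site, at 40.3% of 690 starts, and YY1, at 39.1% of 514 starts. Among the 49 cytosolic ribosomal protein genes with a member, 9 had a site with the element. Over all gene starts with a member, 4.41% held it, and 5.41% of the CpG-rich ones. This was the highest count among the 21 gene lists described below, which differ in size. Transcription machinery and proteasome genes came next with 2 each, and respiratory chain and mitochondrial ribosomal protein genes had 0.

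The genes whose promoter peaks were strongest included genes of general cell functions and heart genes. Signal is the authors' signal value of a peak, in units that the sources used here do not define. In the optimal list its median over members was 30.3 (quartiles 21.2 and 43.6). Values of single libraries ran lower, with medians of 21.4 in replicate 1 and 15.2 in replicate 2 over the 2957 members with a summit in both. Cdk12, which encodes a kinase acting on transcribing RNA polymerase II, led with 154 in replicate 1 and 131 in replicate 2, and ranked 6th and 3rd among all peaks of those libraries. Denr, a translation reinitiation factor, had 151 and 115, and Ostc, a subunit of the oligosaccharyltransferase complex, had 127 and 109. All of these stood far above the median member in both libraries. Slc25a4, the ADP/ATP translocase of heart and muscle mitochondria, had 133 in replicate 1 and 88.3 in replicate 2. Riok2, a kinase of small ribosomal subunit assembly, was the one among the 10 strongest with the higher value in replicate 2, at 95.2 and 118. The heart muscle genes Popdc2, a cAMP-binding membrane protein, and Tnnt2, cardiac troponin T, had 124 and 91.6, and 115 and 98.5. The splicing factor Rbm39 (122 and 88.0), Sde2 (116 and 84.7) and the transcription regulator Qrich1 (103 and 87.9) completed the 10. Among the CpG-poor sites, the next strongest included Arrdc4 (95.9 and 79.4), Rpl32 (103 and 66.1) and Farsb, a phenylalanyl-tRNA synthetase subunit (87.1 and 76.7). Acsl1, which activates long-chain fatty acids, had 89.0 and 74.8, and the adenylate kinase Ak1 had 76.9 and 64.7. Calls had 1 fixed width at 98.9% of the members but at 53 of the 100 strongest, the others being narrower.

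Most summits sat at the start of the gene and slightly before it. Of the 4995 summits, 62.3% (61.0 to 63.7%) lay within 200 bp of the nearest TSS and 39.7% within 100 bp, while 13.1% lay beyond 500 bp. The median position was 39 bp upstream (-39 bp), with quartiles at -183 and 85 bp, and 60.1% of summits were upstream. By annotation, 40.5% lay outside protein-coding genes, 29.1% in introns, 25.2% in UTRs and 5.17% in coding exons. A long non-coding RNA started on the opposite strand within 1 kb of 14.4% of the summits, so one-directional here refers to protein-coding genes only. Distances depend on which TSSs are used: measured to the outermost start of the gene, 46.3% of summits lay within 200 bp. Summits 900 to 1000 bp from the TSS, just inside the limit, numbered 81 with a median signal of 29.5; the 101 summits at 1000 to 1100 bp, just outside, had a median of 28.7.

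**Figure D2:**
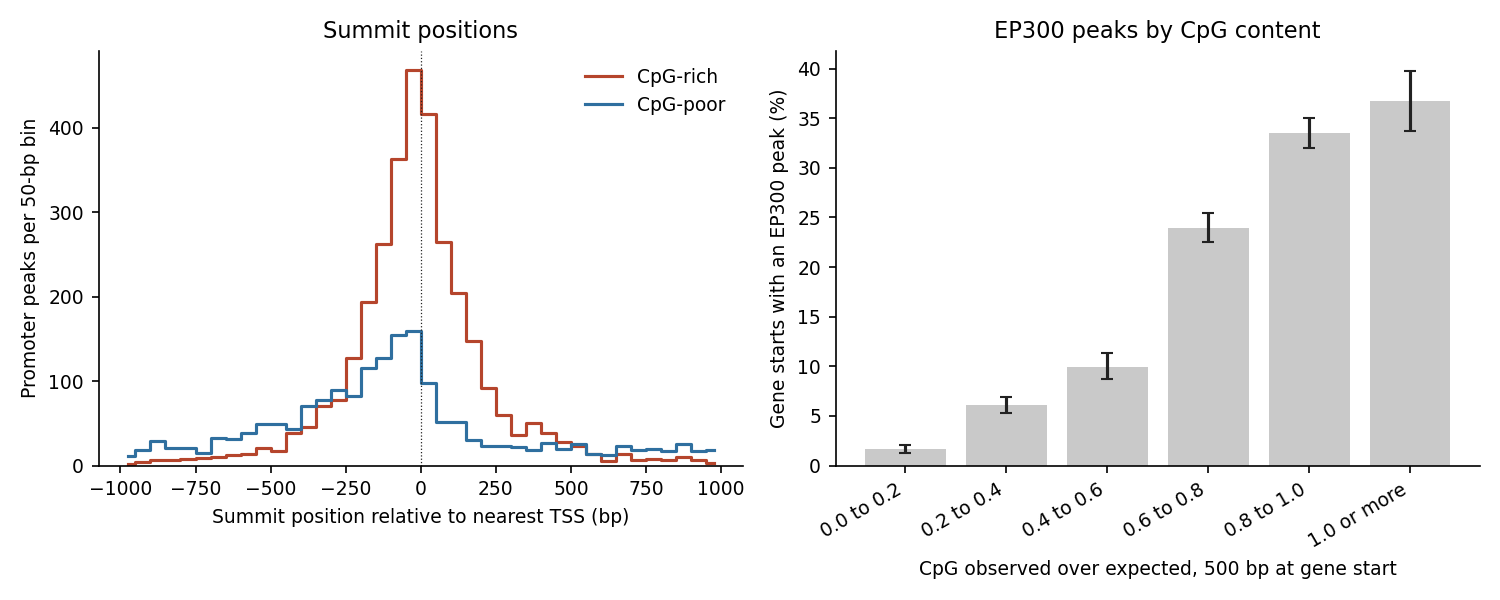
The left plot counts member summits in 50-bp bins of position relative to the nearest TSS (negative is upstream), for CpG-rich and CpG-poor calls. CpG content was scored around the summit, so class and position are not independent. CpG-rich summits pile up at the TSS (median -16 bp), CpG-poor ones spread upstream (median -111 bp). The right plot gives the percent of one-directional gene starts with a member peak by CpG content of the 500 bp at the start, with exact 95% intervals, rising from 1.64% to 36.7%.

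Promoter summits differed in position with the CpG content around them. That content was scored at the summit and not at the gene start, so class and position are not independent. A site was called CpG-rich when the 500 bp around its summit had at least 55% GC and an observed-over-expected CpG ratio of at least 0.6. The 3198 CpG-rich calls had a median position of -16 bp with 72.7% (71.1 to 74.2%) within 200 bp of the TSS. The 1797 CpG-poor calls had a median of -111 bp with 44.0% (41.7 to 46.3%) within 200 bp, and 68.9% of them were upstream, against 55.1% of the CpG-rich ones. Median signals were close, at 36.0 for CpG-rich and 31.7 for CpG-poor sites, with quartiles of 27.0 and 48.9, and of 24.4 and 45.5.

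Genes with a CpG-rich start had an EP300 peak more often. A member peak was assigned to 3488 of 20807 protein-coding genes, 16.8% (16.3 to 17.3%). Of the one-directional gene starts, 30% (29.0 to 31.0%) of the 7707 CpG-rich ones had a member within 1 kb, and 6.41% (5.95 to 6.89%) of the 10688 CpG-poor ones. The share rose through every step of the observed-over-expected CpG ratio, from 1.64% of starts below 0.2 to 9.93% between 0.4 and 0.6, 23.9% between 0.6 and 0.8 and 36.7% (33.7 to 39.8%) at 1 or more. A TATA box (TATAAA, 40 to 20 bp before the start, on the gene's strand) went with fewer peaks at CpG-poor starts, 3.19% (1.75 to 5.29%) with the box against 6.55% (6.08 to 7.04%) without. At CpG-rich starts the shares were 38.9% (27.6 to 51.1%) of 72 with the box and 29.9% (28.9 to 30.9%) without, and their intervals met. Expression was not measured, and its part in these shares was not tested.

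Motif content set the members apart from distal sites. Motifs of 22 factors were counted in 200 bp at each summit and compared with Fisher's exact test, two-sided, adjusted by Benjamini-Hochberg over 44 tests. Sites are not biological replicates, so these p-values concern the sites of this list alone. Against distal sites, 7 motifs were more frequent and 12 less frequent, 86.4% of the 22. Higher at the promoters were general promoter elements. These were SP and KLF sites (GGGCGGG) at 28.2% against 4.64% (Fisher's exact test, adjusted p = 2.8e-292), the promoter-type ETS site (CCGGAAGT) at 7.20% against 0.804% (6.0e-84) and YY1 (AANATGGCG) at 4.43% against 0.303% (3.5e-62). NFY (CCAATCAG) was at 3.43% against 0.867%, CREB and ATF (TGACGTCA) at 2.04% against 0.679%, NRF1 (GCGCATGCG) at 0.891% against 0.0627%, and the E-box CACGTG at 8.54% against 5.93%. All one-directional gene starts, peak or no peak, were searched in 200 bp centred on the start and not on a summit. These windows held SP and KLF sites in 27.5%, the ETS site in 3.75%, YY1 in 2.79% and NFY in 3.25%. CREB and ATF were in 1.86%, NRF1 in 1.61% and CACGTG in 5.43%. Shares at starts are not directly comparable with those at summits. The ETS site was found at 9.28% of starts with a member and 2.68% of starts without, and YY1 at 6.71% and 2.03%. For NRF1 these shares were 2.84% and 1.38%, and for SP and KLF sites 42.4% and 24.6%. These motifs go with CpG content, so the shares were also taken within CpG-rich and within CpG-poor starts. At CpG-rich starts the ETS shares were 10.6% with a member and 5.69% without, and those of YY1 were 7.92% and 4.63%. NRF1 was at 3.33% and 3.22% there, and SP and KLF sites were at 49.5% with a member and 53.4% without. At CpG-poor starts the ETS shares were 4.96% with a member and 1.05% without, and those of YY1 were 2.63% and 0.630%. NRF1 was at 1.17% and 0.380% there, and SP and KLF sites were at 18.4% with a member and 9.06% without. A few strong members show these elements, in the direction of the gene with the match in capitals:
Rpl32, chr6:115808792-115808841, minus strand: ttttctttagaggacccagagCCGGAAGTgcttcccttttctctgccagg
Cct8, chr16:87495878-87495927, minus strand: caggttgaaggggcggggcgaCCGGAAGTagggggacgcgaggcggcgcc
Ech1, chr7:28825207-28825236, plus strand: tgcccttagtaAAGATGGCGaactaggtgg
Rpl10a, chr17:28328550-28328579, plus strand: gctctatttgaGCGCATGCGCaaagcgctc
Sde2, chr1:180850887-180850936, plus strand: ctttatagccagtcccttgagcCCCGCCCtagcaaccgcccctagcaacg
Stk38l, chr6:146724845-146724894, plus strand: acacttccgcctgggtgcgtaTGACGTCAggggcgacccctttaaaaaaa
Tmem94, chr11:115765350-115765399, plus strand: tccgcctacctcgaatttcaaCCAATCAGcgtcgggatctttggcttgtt

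Motifs of heart and muscle factors were less frequent at the promoters than at distal sites. The E-box CAGCTG was at 12.3% against 22% (Fisher's exact test, adjusted p = 3.1e-39), GATA-factor sites (AGATAAG) at 2.10% against 7.74% (2.4e-40), MEF2 at 2.20% against 7.89% (4.7e-40), TEAD (CATTCCA) at 2.65% against 6.94% and the NKX2 site (TNAAGTG) at 6.08% against 12%. AP-1 (TGANTCA), T-box (AGGTGTGA), ERR (TCAAGGTCA), STAT (TTCCNGGAA), the endothelial-type ETS site (CAGGAAGT), the SRF CArG box and the TATA box were lower too. ZNF143 (ACTACAATT), the octamer (ATGCAAAT) and HNF4 (CAAAGTCCA) did not pass the test. MEF2 and the CArG box were searched with their usual degenerate consensus. All were searched on both strands, and some overlap, since a MEF2 match can hold a TATA box and the ETS sites share GGAAGT. Splitting the members by CpG content moved these shares far apart: GATA was at 5.06% of CpG-poor and 0.521% of CpG-rich members, MEF2 at 4.91% and 0.762%, TEAD at 5.14% and 1.32%, and AP-1 at 7.63% and 2.25%. Gene starts were split by their own CpG content, in windows centred on the start and not on a summit. CpG-poor starts without a member held GATA at 2.27%, MEF2 at 2.13%, TEAD at 2.94% and AP-1 at 6.29%. CpG-poor starts with a member held them at 1.75%, 2.77%, 3.07% and 5.69%, in the same order. At CpG-rich starts the shares were 0.371%, 0.204%, 0.778% and 1.76% without a member. With a member they were 0.606%, 0.346%, 0.909% and 1.77%. Shares at starts and at summits are not directly comparable. The CpG-poor members lay closer to the distal sites, where AP-1 was at 9.69%. At all one-directional gene starts GATA was found in 1.48%, MEF2 in 1.36%, TEAD in 2.05%, AP-1 in 4.37%, NKX2 in 6.59% and CAGCTG in 12.7%. Strong CpG-poor members with such matches were the following, in capitals a CAGCTG E-box (Tnnt2), GATA (Popdc2 and Ak1), MEF2 (Ostc and Cpt1b), CArG (Myl3), TEAD (Cacna1c), T-box (Nppa) and ETS site (Egfl7):
Tnnt2, chr1:135836155-135836204, plus strand: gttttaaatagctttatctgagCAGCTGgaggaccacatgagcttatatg
Popdc2, chr16:38362011-38362060, plus strand: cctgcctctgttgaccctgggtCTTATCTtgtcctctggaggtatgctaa
Ak1, chr2:32621321-32621370, plus strand: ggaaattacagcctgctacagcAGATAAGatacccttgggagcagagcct
Ostc, chr3:130709531-130709580, minus strand: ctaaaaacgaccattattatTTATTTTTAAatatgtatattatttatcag
Cpt1b, chr15:89426059-89426108, minus strand: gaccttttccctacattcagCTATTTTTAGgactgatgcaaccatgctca
Myl3, chr9:110763573-110763622, plus strand: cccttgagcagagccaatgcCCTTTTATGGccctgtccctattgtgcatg
Cacna1c, chr6:119196678-119196727, minus strand: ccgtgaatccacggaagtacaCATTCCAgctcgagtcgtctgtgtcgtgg
Nppa, chr4:148000451-148000500, plus strand: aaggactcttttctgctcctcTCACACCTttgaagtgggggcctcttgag
Egfl7, chr2:26583763-26583812, plus strand: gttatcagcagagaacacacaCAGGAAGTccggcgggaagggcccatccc

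**Figure D3:**
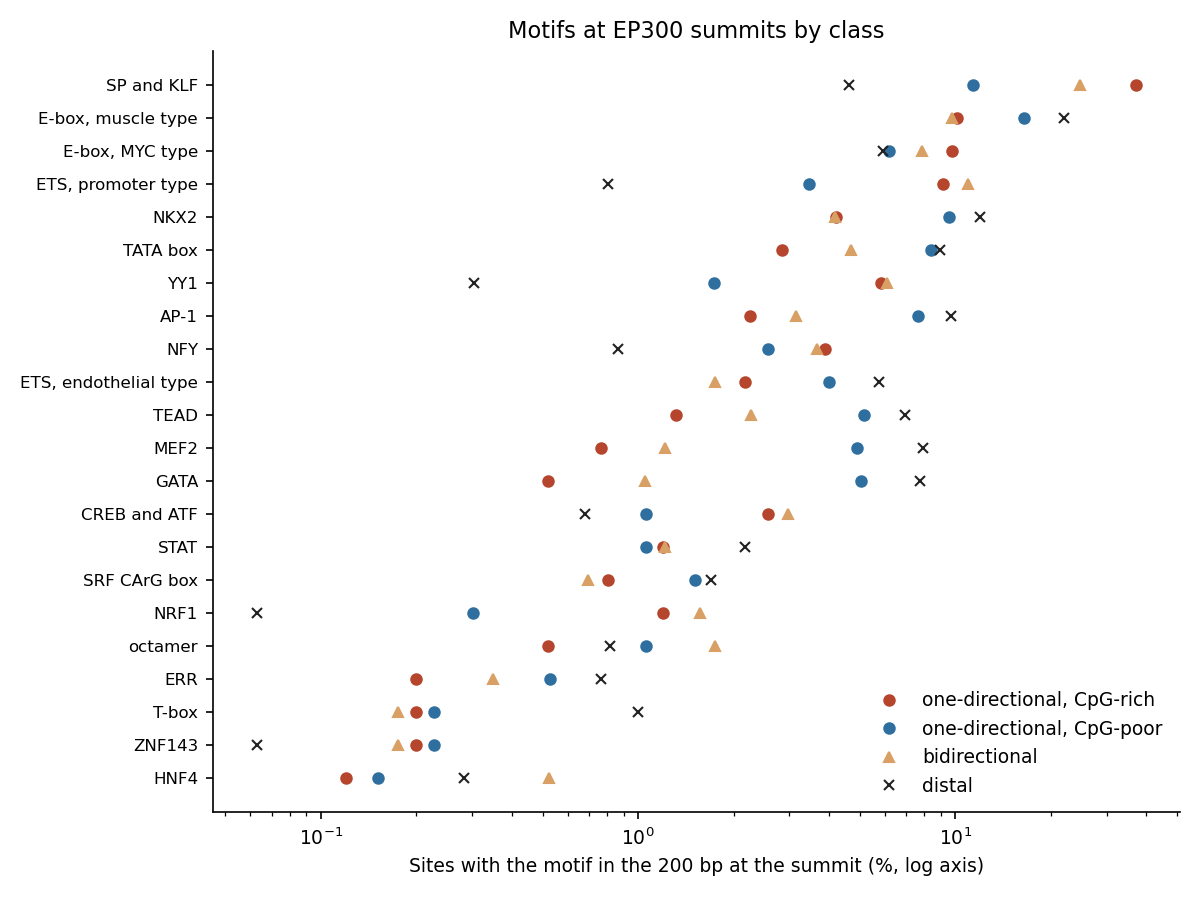
Percent of sites with each of 22 motifs in the 200 bp at the summit, on a log axis, for CpG-rich and CpG-poor one-directional sites (red and blue points), bidirectional sites (triangles) and distal sites (crosses); muscle type marks the CAGCTG E-box and MYC type the other one. GATA, MEF2 and TEAD points of CpG-poor members lie near the distal crosses, those of CpG-rich members to the left of them.

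Against bidirectional promoters few motifs passed the test. By the same Fisher test 2 of 22 passed, 9.09%, both lower at one-directional sites: the promoter-type ETS site at 7.20% against 11% (odds ratio 0.628, adjusted p = 0.00557) and the octamer at 0.707% against 1.75% (0.401, adjusted p = 0.0475). None was higher, and none was higher at an unadjusted p below 0.05 either. With 573 bidirectional sites rare motifs cannot be compared closely; the number of motifs that passed ranged with the setting, as the closing section gives.

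As a group, one-directional sites were less often CpG-rich than bidirectional ones, 65.3% (63.8 to 66.8%) against 77.0% (73.3 to 80.4%), with an odds ratio of 0.564 (Fisher's exact test, adjusted over 6 tests, p = 3.5e-08). Of distal sites 3.25% were CpG-rich, an odds ratio of 56.1 (exact test, adjusted p = 1.0e-300, the smallest value written). Sites in the strongest 20% of the list made up 24.8% (23.4 to 26.2%) of the members and 31.9% (28.1 to 35.9%) of bidirectional sites (odds ratio 0.703, exact test, adjusted p = 6.0e-04). Against the 23.4% of distal sites the odds ratio was 1.08 and did not pass the test (exact, adjusted p = 0.110); it was 1.19 with the peaks of replicate 1 alone and 1.23 with those of replicate 2, which both passed, and 0.975 with every call counted, which did not. A summit in the leading peaks of both libraries was found for 44.1% of members, 47.5% of bidirectional sites (odds ratio 0.874, exact test, adjusted p = 0.137, which passed under 3 other settings) and 50.4% of distal sites (0.776, adjusted p = 1.3e-10). The last difference turned round when the sites were taken from replicate 2 alone, to an odds ratio of 1.11 (exact test, adjusted p = 0.00962).

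Gene lists of the heart and of general cell functions were then counted for genes with a member, beside the 16.8% of all genes. Of 21 lists, 15 had a higher share. The share of all genes is not matched for CpG content. Of one-directional gene starts, 30% of CpG-rich ones and 6.41% of CpG-poor ones had a member. The part of CpG content in the list shares was not tested. These are counts with exact intervals and no test, and the order of the highest lists changed with the setting.

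Most genes of the contractile apparatus had a promoter peak. A member was found at 22 of 30 sarcomere and Z-disc genes (73.3%, 54.1 to 87.7%), and 21 of the 22 strongest summits at these genes were CpG-poor, Tpm1 being the exception. Tnnt2 was followed by Tnni1, the slow troponin I of fetal heart, with 75.5 in replicate 1 and 53.3 in replicate 2 at a summit 866 bp inside the gene. The ventricular light chain Myl2 had 43.3 and 41.6, Myl3 had 43.8 and 36.4, and Tnni3, adult cardiac troponin I, had 35.1 and 39.9. These pairs of values lay close together and above the median member of each library. Myh6, the alpha myosin heavy chain, was less even, with 53.6 and 17.1. Myh7, the beta chain, had 12 in replicate 1 and no summit within 100 bp in replicate 2. Genes without a member included Tnnc1, Myl4, Myl7, Tcap, Myom2, Xirp1 and Xirp2.

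Calcium handling, channel and junction genes had a member at 11 of 24 (45.8%, 25.6 to 67.2%). The L-type calcium channel gene Cacna1c had 54.9 in replicate 1 and 55.6 in replicate 2, and the sodium-calcium exchanger Slc8a1 had 60.1 and 40. Jph2, which ties the sarcoplasmic reticulum to the cell membrane, had 47.9 and 25.4. The ryanodine receptor Ryr2 was weak, with 20.8 and 7.04, and phospholamban (Pln) had 15.9 in replicate 1 and no summit in replicate 2. Atp2a2, Casq2 and both Hcn genes listed were among those with none.

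Cardiac transcription factors had a member at 14 of 22 (63.6%, 40.7 to 82.8%). The strongest were Mef2a, with 60.6 in replicate 1 and 56.9 in replicate 2, and Myocd, the coactivator of SRF, with 79.6 and 38.0. Mef2c had 63.7 and 29.6. Gata4 was lower, with 14.8 and 20.5. Its signal in the optimal list was 33.9, close to the median member of that list at 30.3. Nkx2-5, Tbx5, Hand1, Hand2, Isl1, Tbx2, Prox1 and Smyd1 had none, so the core cardiac factors were split between genes with and without a promoter peak. Natriuretic peptide and stress genes had a member at 7 of 11 (63.6%, 30.8 to 89.1%). The strongest call of each of the 7 was at or above the median over all member calls. That median includes weaker calls at the same genes, and the share of all genes that reach it was not counted. Nppa, which encodes atrial natriuretic peptide, had 37.2 and 25.7, Nppb had 23.5 and 27.5, the small heat shock protein gene Hspb7 had 51.1 and 30.1, and Ankrd1 had 42.0 and 33.8.

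Genes of energy supply were also above the share of all genes. Fatty acid oxidation had 12 of 26 (46.2%, 26.6 to 66.6%), with Acsl1 and Acadl (64.0 in replicate 1 and 56.3 in replicate 2) the strongest, then the fatty acid transporter Cd36 (70.4 and 39.3) and the muscle carnitine palmitoyltransferase Cpt1b (39.2 and 61.1). Acadvl, Hadhb, Cpt2 and Ppara had none, and Hadha, Crat and Fabp3 had a bidirectional peak only. The respiratory chain and ATP synthase had 32 of 81 (39.5%, 28.8 to 51.0%), led by Atp5b, the catalytic beta subunit, with 97.2 and 75.9, and by Atp5l with 39.8 and 43.2. Another 14 of these genes had a bidirectional peak only.

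Genes that respond to time of day or stimulation had shares close to that of the sarcomere genes. AP-1 and immediate early genes had 18 of 24 (75%, 53.3 to 90.2%), mostly CpG-rich, with 5 of the 18 CpG-poor. Jun had 54.1 in replicate 1 and 27.2 in replicate 2, the flow-responsive factor Klf2 had 46.6 and 16.3, and Fos had 27.0 and 24.6. Circadian clock genes had 14 of 19 (73.7%, 48.8 to 90.9%). The strongest call of each of the 14 was at or above the median over all member calls. How many of all genes with a member reach that median was not counted. Arntl, which encodes the activator BMAL1, ranked 15th among the members with 113 and 79.3. The clock-controlled repressor Bhlhe40 had 76.7 and 22, Per1 had 48.3 and 44.4 and Per2 had 44.4 and 48.5. Cry1, Cry2, Clock, Nfil3 and Bhlhe41 had none. The time of day at which the hearts were taken is not given in the sources used here.

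Protein synthesis and turnover genes followed. Cytosolic ribosomal protein genes had 49 of 79 (62.0%, 50.4 to 72.7%), of which 9 were CpG-poor, with Rpl32 and Rps3a1 (89.3 in replicate 1 and 54.7 in replicate 2) the strongest. The proteasome had 18 of 38 (47.4%, 31.0 to 64.2%), led by Psmd5 with 97.2 and 70.6 and Psmb2 with 60 and 28.0. Mitochondrial ribosomal proteins had 25 of 78 (32.1%, 21.9 to 43.6%), with Mrpl45 (29.9 and 40.9) and Mrpl52 (43.4 and 16.6) highest. Transcription machinery had 10 of 29 (34.5%), where Cdk12 was followed by the polymerase subunit Polr2e with 76.0 and 63.4. Histone acetyltransferases and deacetylases with their coregulators had 12 of 24 (50%, 29.1 to 70.9%). Hdac5, a class II deacetylase that binds MEF2, had 70.1 and 32.0, Med1 of Mediator had 38.4 and no summit in replicate 2, and Ep300 itself had 18.4 and 11.8. Crebbp, the paralogue of Ep300, had none. Cell cycle genes had 9 of 30 (30%, 14.7 to 49.4%), where Top2a stood out with 69.1 and 59.6 and Cdk4 had 22.8 and 20.2; no cyclin gene of the list had a member.

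Lists for other cell types came next. Endothelial and endocardial genes had 10 of 28 (35.7%, 18.6 to 55.9%), 9 of the 10 CpG-poor. Egfl7, secreted by endothelium, had 39.0 in replicate 1 and 84.5 in replicate 2, Lyl1 had 59.5 and 44.4, and Fli1 had 43.1 and 31.9. Pecam1, Kdr and Tek had none. Smooth muscle and pericyte genes had 2 of 15 (13.3%, 1.66 to 40.5%), Des and Smtn, and of these Des is also expressed by heart muscle. Fibroblast and matrix genes had 2 of 20 (10%, 1.23 to 31.7%), Fbn1 with 17.9 and 12.6 and Col1a1 with 15.9 and 8.58. Erythroid genes had 1 of 10, Tfrc (15.9 and 16.9), and macrophage and leukocyte genes 1 of 15, Cd68 (8.42 and 4.72). No neuronal gene of 18 (upper limit 18.5%) and no liver gene of 20 (upper limit 16.8%) had a member. Of these 7 lists, all but the endothelial one had an interval that included or touched the share of all genes. With 1 TSS per gene the endothelial one did too, at 25% (10.7 to 44.9%) against 14.8% of all genes.

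**Figure D4:**
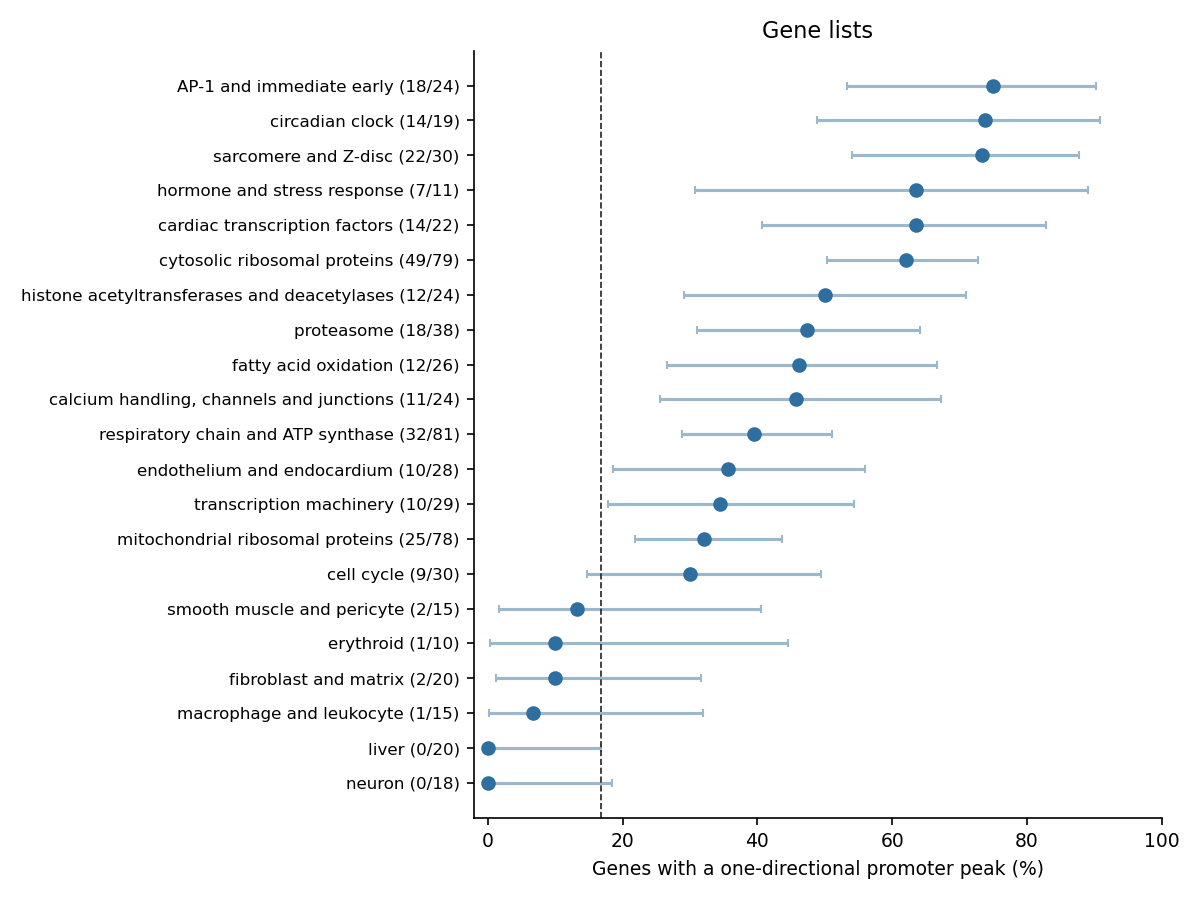
Percent of the genes of each list that have a one-directional promoter peak (points, with exact 95% intervals) and the counts behind it; the dashed line is the 16.8% of all protein-coding genes. AP-1 and immediate early, clock and sarcomere genes lie near 75%, liver and neuron genes at 0.

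Few genes had several separate sites. Of 3485 genes with a site, 91.5% had 1, 7.49% had 2 and 34 genes had 3 or more. Mtus1, which encodes a microtubule-associated protein with several alternative starts, had 5 sites, Tns1, encoding the focal adhesion protein tensin 1, and Sgms1, a sphingomyelin synthase, had 4 each, and Tnnt2 and Myocd had 3 each. The strongest Mtus1 site had 34.5 in replicate 1 and 15.6 in replicate 2, and the strongest Tns1 site had 27.3 and 29.0. Most of these sites lay in introns, at alternative starts. By chromosome, the share of genes with a member ran from 13.3% on chromosome 14 to 20.9% on chromosome 11.

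The strong promoters were found in both libraries, and the weak ones mostly in 1 of them or in neither. A library supported a member when it had a summit within 100 bp among its 17372 leading peaks, as many as the optimal list holds. Members were ranked by the signal of a list derived from both libraries, so rank and support are not independent. Both libraries supported 96.4% (94.4 to 97.9%) of members ranked 1 to 500, 80.4% of the next 500, 49.7% of the 1500 after those and 6.17% (5.26 to 7.19%) of the remaining 2495. Replicate 1 supported 63.7% of all members and replicate 2 supported 49.6%. Where both libraries had a summit in their full lists (2957 members), their signals had a Pearson correlation of 0.694 and a Spearman correlation of 0.462 across peaks, which are not independent replicates. The median signal was 21.4 in replicate 1 and 15.2 in replicate 2. CpG-rich sites were supported more by replicate 1, at 77.3% against 55.6% for replicate 2, than CpG-poor sites, at 66.8% against 58.3%.

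**Figure D5:**
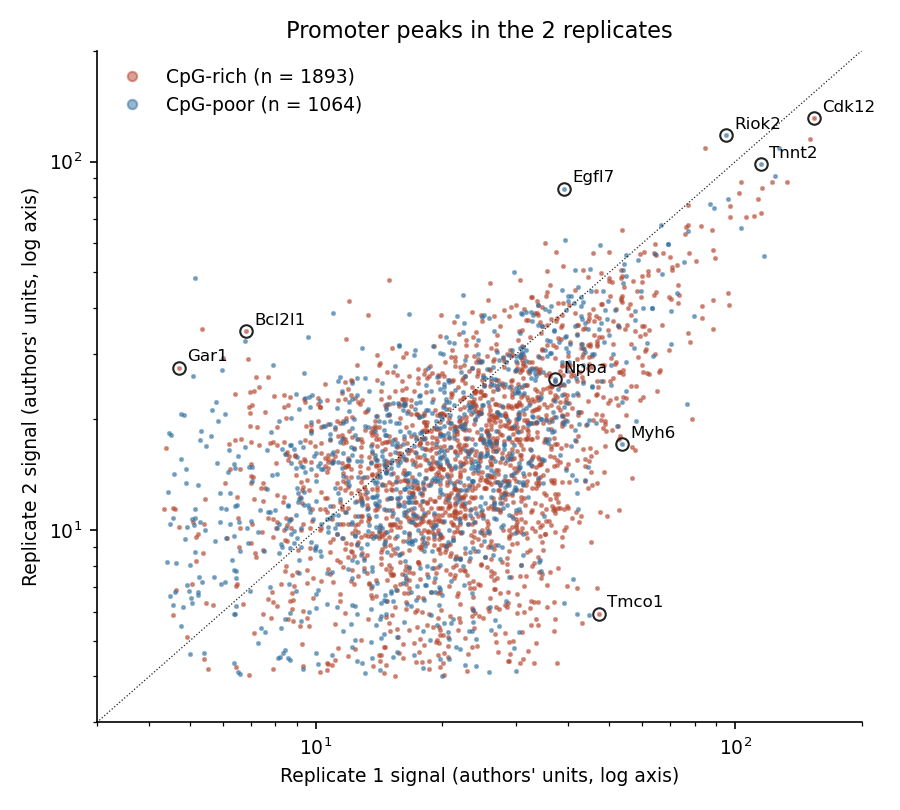
Signal of 2957 member peaks in replicate 1 (x axis) and replicate 2 (y axis), both log axes in the authors' units, for 1893 CpG-rich (red) and 1064 CpG-poor (blue) calls; the dotted line marks equal values and circled points are named genes. Strong peaks such as Cdk12 and Tnnt2 lie near the line, while Gar1 and Tmco1 lie far from it on opposite sides.

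Among the first 1000 members, 911 had a summit in both libraries, 30 had none in replicate 1 and 61 had none in replicate 2. The ranks differed most for 5 genes. Gar1, a small nucleolar ribonucleoprotein component, had 4.71 in replicate 1 and 27.6 in replicate 2, and Bcl2l1, which encodes the survival protein BCL-XL, had 6.79 and 34.7. Tmco1, an endoplasmic reticulum calcium channel, had 47.3 and 5.92, the DNA repair gene Nbn had 43.1 and 5.57, and the palmitoyltransferase gene Zdhhc5 had 44.8 and 5.88. These 5 peaks were high in 1 library each. Of all members 56.4% reached a -log10 q of 2 in the optimal list, 51.4% did so at a summit of replicate 1 and 15.9% did so at one of replicate 2.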

How the data were processed

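EP300 ChIP-seq peaks of newborn mouse heart were analysed from the deposited peak lists for 2 libraries, their pool, and the optimal and conservative IDR lists, all in mm10 per the labels. The deposited columns used were the signal value of each peak, the −log10 of its q-value and a score of at most 1000, all as the authors' peak caller gave them. Per the file headers, replicate 1 was called against 2 control files and replicate 2 against 1. Not given in the sources used here: the aligner, the caller, the IDR threshold and the read depth, so no value has a depth behind it. Each library and the pool held up to 300000 ranked peaks.

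TSSs came from GENCODE M21 on GRCm38 (52092 protein-coding TSSs), sequences from RefSeq GRCm38.p6. Summits were classed by distance to TSSs, joined within 1 call width, matched to library summits within 100 bp, and scored for CpG content (500 bp) and motifs (200 bp). Classes were compared with Fisher's exact test and Benjamini-Hochberg adjustment, and the test was tested on simulated data. Calculations used SciPy 1.17.1 with pandas 2.3.3 and numpy 2.4.6 under Python 3.11.15, and plots matplotlib 3.10.9.

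Genes were named by rule: the 10 strongest members, the 10 strongest CpG-poor ones, the 2 strongest of each list, the 5 genes with most sites, 12 cardiac genes, and the 5 members among the first 1000 whose ranks differed most. Some genes that the rule selects are not reported here. Other genes were named after their values were seen. Members and lists were chosen with earlier results of these data known. Of 648 list entries, 641 matched annotated genes. Alternatives covered the peak list, each library alone, promoter distance, TSS set, q, windows and merging.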

Additional observations from a re-analysis of the deposited data

How the results depend on the processing

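No paired analysis was possible because the 2 libraries form 1 group. Of the results that answer a comparison, 87 values kept their direction and side of the threshold or stayed close, 30 moved, 8 newly passed the threshold and 4 changed direction. The share of members among peaks (29.1%) was 28.4% with −log10 q of at least 2, 24.3% with 1 TSS per gene, 26.0% at 500 bp and 32.5% at 2 kb, and 24.9 to 29.9% with 1 library left out. The share of genes with a member (16.8%) was 12%, 14.8%, 15.9% and 17.6% in the same order, 14.7% with the conservative list and 16.0 to 19.7% with 1 library left out. Summits within 200 bp of a TSS (62.3%) came to 70.3%, 56.3%, 71.3% and 54.8%, to 46.3% measured to the gene start, and to 57.5 to 65.9% with 1 library left out. The odds ratio for support by both libraries against bidirectional sites (0.874) passed the threshold with the conservative list (0.803, Fisher's exact test, adjusted p = 0.0321) and the leading 10000 peaks of each library (0.770, adjusted p = 0.00701), and with replicate 1 alone (0.817, adjusted p = 0.0179), and was 0.845 with replicate 2 alone. Against distal sites it ran from 0.694 to 1.11. The odds ratio for the strongest 20% against distal sites (1.08) was 1.14 with 1 TSS per gene, 1.11 with the conservative list, 1.14 at 500 bp, and 1.19 to 1.23 with 1 library left out, which all passed; it was 0.944 with −log10 q of at least 2, 0.975 with every call counted and 0.947 for the top 10%. Motifs higher than at bidirectional sites (0) numbered 1 with the conservative list, with every call counted and in 400 bp, and 2 with either library alone; those lower (2) numbered 0 with −log10 q of at least 2 and in 100 bp, 1 with 1 TSS per gene and at 500 bp, and 0 to 2 with 1 library left out. The cause was not tested in any of these. The CGCG element was found in 30 to 37.0% of the 100 strongest sites, and 75.3 to 84.6% of gene starts with it had a member, over the peak-list, distance, TSS and q settings, which were applied to it after seeing the data. Cell cycle and smooth muscle genes were the lists that changed sides of the share of all genes: cell cycle genes were above it in 7 of 8 settings and smooth muscle genes in 1. Read depth is unknown, so no limit of detection can be given for a promoter without a peak, and p-values treat sites as independent.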
